A study of Homo sapiens with 9 samples.

Results

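The genes examined were 39 integrin chains, discoidin domain receptors, laminin chains, type IV collagen chains and other matrix ligands, taken as a set of cell-matrix adhesion genes. When the set was chosen, DDR2 and ITGA8 were named as examples high in BRD1-L cells, so their BRD1-L values are given as a description and not as a test. A gene entered through the probe sets whose only gene symbol was its own. In all, 130 of 49386 probe sets covered 38 of the 39 genes: 12 integrin alpha chains, 6 integrin beta chains, 2 discoidin receptors, 8 laminin chains, 4 type IV collagen chains and 6 other ligands. LAMA3 was not analysed here. Expression was measured on 9 Affymetrix U219 arrays, all of HEK293T cells, a human embryonic kidney line transformed with adenovirus DNA and SV40 large T antigen and grown in serum-containing medium. There was 1 array of untreated cells, 1 of cells that carried stable or episomal His6/V5-tagged BRD1-S (the short isoform), 1 of cells that carried BRD1-L (the long isoform) tagged in the same way, and 6 arrays in 3 pairs of BRD1 siRNA and mock. The labels call the siRNA controls mock, the name kept here, whereas the study's methods describe them as cells given scrambled siRNA. One pair used a Qiagen kit and the other two (Dharmacon 1 and Dharmacon 2) a Dharmacon kit. The tagged cells were set against the untreated cells, and each siRNA array against its mock array, to ask which genes follow the level of BRD1, a bromodomain scaffold protein of histone acetyltransferase complexes. How many clones each stable line was grown from is not given in the sources used here, and each line was 1 sample.

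Values were log2 intensities, and the value of a gene was the mean of its probe sets. Where 3 mock or 3 siRNA arrays are listed, the order is Qiagen, Dharmacon 1 and Dharmacon 2. BRD1 itself read 7.61 on the untreated array, 7.82, 7.79 and 7.75 on the mock arrays, 7.07, 6.94 and 6.75 on the siRNA arrays, 9.27 on the BRD1-S array and 9.30 on the BRD1-L array. Tagged, siRNA and control arrays thus stood where their labels placed them. The BRD1 level cannot tell BRD1-S from BRD1-L, untreated from mock, or one kit or replicate from another. No detection calls were used. A guide to background was the 95th percentile of 340 olfactory receptor genes, which lay between 4.10 and 4.31 on the 9 arrays. By this guide 24 of the 38 genes were above background on all arrays, 10 on none, and 4 (ITGA1, ITGA4, DDR2 and SPARC) on some. All 8 listed HEK293T markers were above it on all arrays, against 0 of 6 leukocyte markers, at most 1 of 6 endothelial markers and at most 1 of 10 fibroblast markers on any array. The summed level of the fibroblast list ranged from 6.97 to 7.16 on the log2 scale and was 6.99 on the BRD1-L array, and the endothelial sum ranged from 6.24 to 6.41. Within the HEK293T list, 3 markers differed most between the BRD1-L and untreated arrays: the neurofilament genes NEFL and NEFM were lower than on the untreated array by a log2 difference of -3.35 and -3.75, and the keratin gene KRT8 was higher by 2.66. The part of these shifts in the results that follow was not tested. The mock arrays of the Qiagen and Dharmacon 1 pairs were the most alike of all pairs of arrays (r = 0.9978 over probe sets). Mock Dharmacon 2 lay closest to the siRNA array of its own pair (0.9971), then to the BRD1-S array (0.9967) and the untreated array (0.9961).

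Integrins are receptors made of an alpha and a beta chain that join the extracellular matrix to the actin cytoskeleton, and the alpha chain largely sets the ligand: laminins, collagens or proteins with an RGD motif such as fibronectin. Discoidin domain receptors are tyrosine kinases that bind collagen directly. Basement membranes, the thin sheets on which epithelia rest, are built from a laminin network and a type IV collagen network, with nidogens bridging them and perlecan, SPARC and fibronectin bound to them. In the kidney, integrin alpha 8 with beta 1 is the receptor for nephronectin in ureteric bud outgrowth, and type IV collagen chains form the glomerular basement membrane.

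The promoters of the genes on which the results turn are shown first, from RefSeq promoter windows on GRCh38.p14. The windows used here covered 33 of the 39 genes. For DDR2, ITGA8 and NID2 the sequence is the 250 bases upstream of the outermost start, 5′ to 3′ on the strand of the gene. Capitals mark the box CCAAT, the TATA sequence TATAAA and the GC box motif GGGCGG, searched on both strands and allowed to overlap. DDR2 lies at chr1:162630613-162630862 on the plus strand, the outermost of 3 RefSeq starts, ITGA8 at chr10:15719923-15720172 on the minus strand and NID2 at chr14:52069060-52069309 on the minus strand.
DDR2: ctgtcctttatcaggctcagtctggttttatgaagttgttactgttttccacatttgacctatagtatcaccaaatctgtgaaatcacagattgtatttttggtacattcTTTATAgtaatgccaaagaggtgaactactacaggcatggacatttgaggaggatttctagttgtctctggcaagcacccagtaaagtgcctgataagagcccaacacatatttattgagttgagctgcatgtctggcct
ITGA8: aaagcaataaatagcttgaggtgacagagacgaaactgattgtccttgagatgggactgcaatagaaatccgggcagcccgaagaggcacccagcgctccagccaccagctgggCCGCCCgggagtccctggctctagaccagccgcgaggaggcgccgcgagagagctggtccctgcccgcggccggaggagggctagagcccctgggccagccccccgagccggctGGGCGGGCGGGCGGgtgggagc
NID2: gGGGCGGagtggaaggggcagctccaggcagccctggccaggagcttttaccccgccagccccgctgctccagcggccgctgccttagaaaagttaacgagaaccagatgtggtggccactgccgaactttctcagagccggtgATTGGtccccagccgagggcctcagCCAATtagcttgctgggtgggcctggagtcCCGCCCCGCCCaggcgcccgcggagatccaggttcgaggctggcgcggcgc
The DDR2 stretch had a GC content of 40%, with 0 CpG, 1 TATAAA and neither of the other motifs. The ITGA8 and NID2 stretches each had a GC content of 68%, with 19 and 18 CpG, and 4 and 3 matches of GGGCGG. NID2 also had 2 matches of CCAAT. Over 35116 windows of the same length the median GC content was 58%, and 32% held CCAAT, 10.7% TATAAA and 42.6% GGGCGG. Both genes that were higher by the most in BRD1-L cells are in this trio, and the upstream sequences shown for them were unlike each other in base composition. For DDR2 only the outermost of its 3 starts was examined, and which start these cells use was not tested.

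COL4A1 and COL4A2 are read in opposite directions from a shared promoter, and the stretch between their starts is shown because it serves both genes. It spans 126 bases at chr13:110307158-110307283 and is given on the plus strand, the strand of COL4A2.
COL4A1-COL4A2: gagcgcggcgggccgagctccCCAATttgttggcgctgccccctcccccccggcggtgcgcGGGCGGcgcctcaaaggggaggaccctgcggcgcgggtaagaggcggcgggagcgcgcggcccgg
It had a GC content of 80.2%, 20 CpG, 1 CCAAT and 1 GGGCGG. Of stretches of that length next to a start, 21.1% held CCAAT, 5.87% TATAAA and 34.6% GGGCGG. COL4A5 and COL4A6 are likewise head to head on the X chromosome, with 379 bases between their outermost starts.

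**Figure D1:**
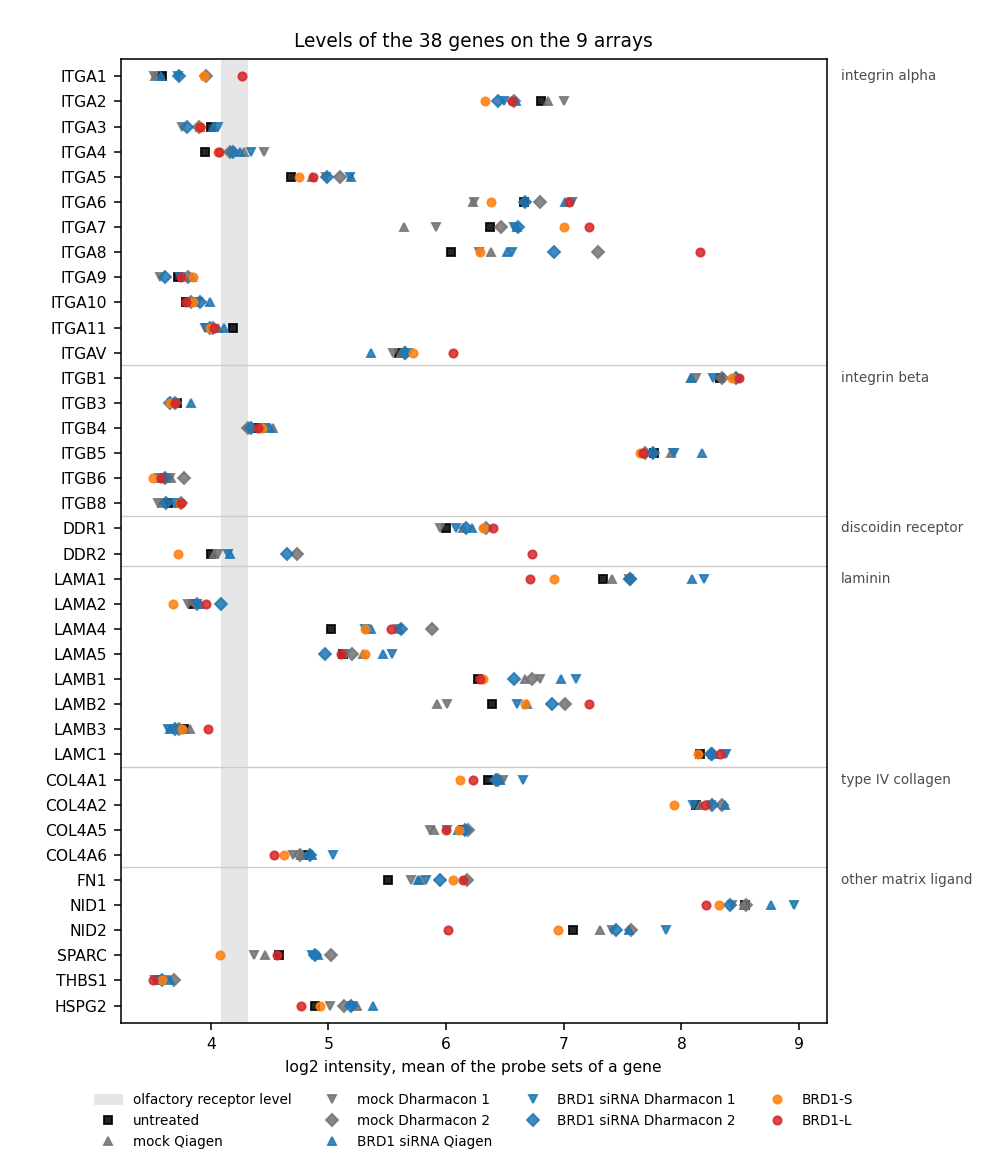
Log2 intensity (x axis) of each of the 38 genes (y axis, grouped by role) on the 9 arrays, 1 marker an array. The grey band is the olfactory receptor level of 4.10 to 4.31. BRD1-L stands to the right of all other arrays for DDR2, ITGA8, ITGA7, ITGAV, LAMB2 and ITGA1 and to the left of all others for NID2 and LAMA1.

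Against the untreated array, BRD1-L cells had higher levels of the collagen receptor DDR2 and the integrin chain ITGA8 and lower levels of the linker NID2. By the study's own criterion, at least 1 probe set past 1.5-fold (a log2 difference of 0.58), 10 of 38 genes were higher (ITGA1, ITGA6, ITGA7, ITGA8, ITGAV, DDR1, DDR2, LAMA4, LAMB2 and FN1), or 26.3%, beside 6.21% of all 18239 genes. Lower were 3 of 38 (LAMA1, COL4A6 and NID2), or 7.89%, beside 4.22%. This criterion gives a gene with more probe sets more chances, and these genes had 3.42 probe sets each, against 2.48 over all genes. By the mean of the probe sets, 6 were higher (15.8%) beside 3.13% of all genes, and 2 were lower (5.26%) beside 1.69%. Among them 5 genes were past the threshold in every probe set upward (ITGA1, ITGA7, ITGA8, DDR2 and LAMB2) and 2 downward (NID2 and LAMA1), beside 2.03% and 1.06% of all genes, but ITGA1, ITGA7, ITGA8, LAMB2 and LAMA1 have only 1 probe set each. The balance depended on the control: with mock Dharmacon 2 in place of the untreated array 5 genes were higher (ITGA7, ITGA8, ITGAV, DDR1 and DDR2) and 7 lower, beside 4.17% and 4.66% of all genes. The median log2 difference of the 38 genes from the untreated array was 0.03, beside 0.00 over all genes. The counts of higher genes include DDR2 and ITGA8, named for being high in BRD1-L cells. Nothing is read from the excess of these counts over all genes. All counts here rest on 1 array a line and have no test. In such bulk samples more cells with a transcript and more of it per cell cannot be told apart.

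To set BRD1-L against replicate spread, its array was compared with the untreated and 3 mock arrays together in a limma fit over all 9 arrays with 4 arms. The fit takes the lone BRD1-L array to vary like the others, and its p-values were adjusted over 18239 genes. NID2 was called lower, 1 of 38 genes beside 0.351% of all genes. The only gene past the threshold upward was DDR2, beside 0.439% of all genes, and nothing is read from that count because DDR2 was named for this difference. Of the 38 genes, 3 were more than 1.5-fold above all 4 untreated and mock arrays (ITGA7, ITGA8 and DDR2), 7.89% beside 0.998% of all genes. DDR2 and ITGA8 were named for being high in BRD1-L cells, so nothing is read from that share. A further pair, LAMA1 and NID2, lay as far below all 4 (5.26%, beside 0.757%).

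**Figure D2:**
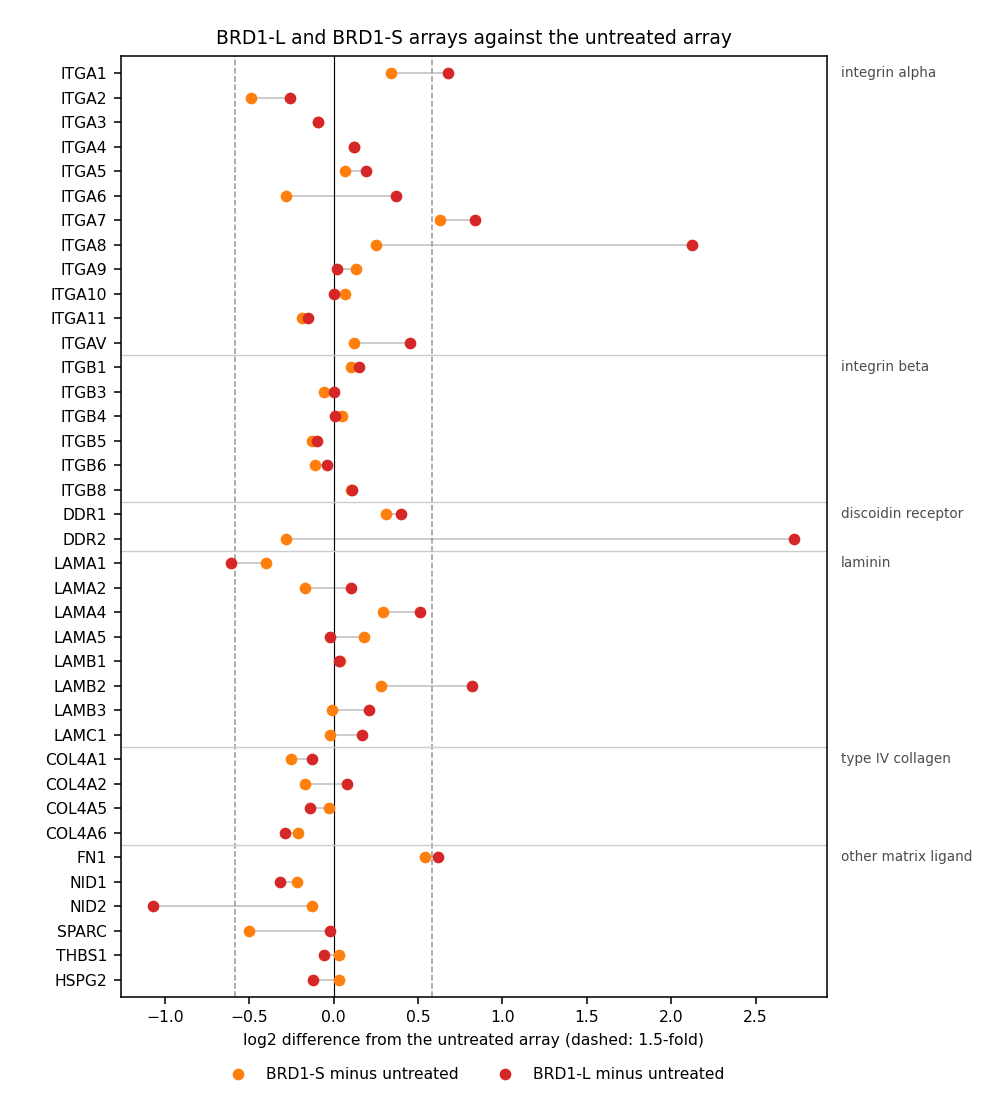
Log2 difference from the untreated array (x axis) of the BRD1-L array (red) and the BRD1-S array (orange) for each gene, 1 array a point. The dashed lines mark 1.5-fold. DDR2 at 2.73 and ITGA8 at 2.12 are far to the right for BRD1-L and near 0 for BRD1-S, and NID2 at -1.07 is to the left.

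DDR2, the discoidin receptor for fibrillar collagens, read 4.0 on the untreated array, 4.03, 4.06 and 4.73 on the mock arrays, 4.16, 4.15 and 4.65 on the siRNA arrays, 3.72 on the BRD1-S array and 6.73 on the BRD1-L array. The BRD1-L array alone was clearly above background, and the arrays of the Dharmacon 2 pair were the only others above the olfactory level. The measured difference from the untreated array was 2.73. The untreated value lies under that array's olfactory level of 4.21, and against that level the BRD1-L intensity was at least 5.75-fold higher. The 3 probe sets gave differences of 2.29, 3.23 and 2.68. Against the untreated and mock arrays together the difference was 2.53 (SE 0.30). A further 2 probe sets, annotated with the symbol DDR2 under more than 1 gene entry, were left out of these values. In BRD1-L cells 1 of them read 8.38 against 5.13 on the untreated array (3.25), and the other, below the olfactory level, read 3.41 against 3.56 (-0.14). DDR1, the discoidin receptor of epithelial cells, which also binds type IV collagen, read 6.0 on the untreated array, 6.31 on the BRD1-S array and 6.40 on the BRD1-L array. The mock arrays ranged from 5.95 to 6.34, so the difference of 0.40 for BRD1-L reached only a little past the control arrays.

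Among the 12 integrin alpha chains, 5 were higher in BRD1-L cells in at least 1 probe set and 0 were lower, beside 6.21% and 4.22% of all genes, with a median difference of 0.15. The 5 include ITGA8, which was named for this difference when the set was chosen. ITGA8, the nephronectin receptor chain, read 6.04 on the untreated array, 6.38, 6.28 and 7.29 on the mock arrays, 6.52, 6.56 and 6.92 on the siRNA arrays, 6.29 on the BRD1-S array and 8.16 on the BRD1-L array. BRD1-L was the highest array and mock Dharmacon 2 the next. The difference from the untreated array was 2.12 (4.35-fold), and it was 0.88 when mock Dharmacon 2 served as the control. Against the untreated and mock arrays together it was 1.67 (SE 0.40), and without mock Dharmacon 2 it was 1.93. The gene had 1 probe set.

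ITGA7, a laminin-binding chain best known from muscle, read 6.37 on the untreated array, 5.64, 5.91 and 6.47 on the mock arrays, 6.60, 6.58 and 6.61 on the siRNA arrays, 7.0 on the BRD1-S array and 7.21 on the BRD1-L array. Both tagged lines were above the other 7 arrays, and the Qiagen and Dharmacon 1 mock arrays were below all the rest. The difference from the untreated array was 0.84 for BRD1-L and 0.63 for BRD1-S. In the limma fit BRD1-L differed by 1.11 (SE 0.28, adjusted p = 0.127) and BRD1-S by 0.90 (SE 0.28, adjusted p = 1). ITGA7 also had a single probe set.

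ITGA1, a collagen receptor chain, read 3.59 on the untreated array, 3.53, 3.52 and 3.96 on the mock arrays, 3.58, 3.72 and 3.73 on the siRNA arrays, 3.94 on the BRD1-S array and 4.27 on the BRD1-L array. It passed the olfactory level only on the BRD1-L array, so its difference of 0.68 lies at background intensities. The limma difference was 0.62 (SE 0.17, adjusted p = 0.157), so ITGA1 was not called, and without mock Dharmacon 2 it was 0.72.

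ITGAV, the alpha chain of several RGD receptors, read 5.60 on the untreated array, 5.62, 5.55 and 5.65 on the mock arrays, 5.36, 5.68 and 5.65 on the siRNA arrays, 5.72 on the BRD1-S array and 6.06 on the BRD1-L array. The untreated and mock arrays lay between 5.55 and 5.65 and BRD1-L above them all. All 5 probe sets were at or above the untreated level and 2 were past 1.5-fold, for a mean difference of 0.45. The limma difference was also 0.45 (SE 0.13, adjusted p = 0.166). ITGA6, the laminin receptor chain of epithelia, was higher by 0.37 in BRD1-L cells and differed by -0.28 in BRD1-S cells.

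The remaining alpha chains differed from the untreated array by -0.26 (ITGA2, a collagen receptor chain) to 0.19 (ITGA5, the fibronectin receptor chain) in BRD1-L cells, and none passed the criterion. ITGA3, ITGA9, ITGA10 and ITGA11 were not above the olfactory level on any array. ITGA4, a chain of the receptor for fibronectin and VCAM1, was above it on 5 arrays.

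None of the 6 integrin beta chains passed 1.5-fold in either line, and their differences from the untreated array ran from -0.10 to 0.15 in BRD1-L cells and from -0.13 to 0.10 in BRD1-S cells. ITGB1, the beta partner of ITGA1, ITGA6, ITGA7, ITGA8 and ITGAV, read 8.33 on the untreated array, 8.08, 8.12 and 8.34 on the mock arrays, 8.08, 8.27 and 8.46 on the siRNA arrays, 8.43 on the BRD1-S array and 8.49 on the BRD1-L array. It spanned 0.41 over all 9 arrays, whereas ITGA8 spanned 2.12. Over the 9 arrays ITGA8 and ITGB1 had r = 0.52.

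ITGB5, a partner of ITGAV in the vitronectin receptor, read 7.77 on the untreated array, 7.91, 7.93 and 7.69 on the mock arrays, 8.17, 7.94 and 7.76 on the siRNA arrays, 7.65 on the BRD1-S array and 7.67 on the BRD1-L array. Its highest array was BRD1 siRNA Qiagen, on which ITGAV was lowest, and the pair had r = -0.73. ITGB4, the beta partner of ITGA6 in hemidesmosomes, was a little above the olfactory level on all arrays, from 4.32 to 4.53. ITGB3, ITGB6 and ITGB8, further partners of ITGAV, were not above it on any array. These correlations are descriptions over arrays that share cells, kits and controls.

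Of the 8 laminin chains, LAMB2 and LAMA4 were higher and LAMA1 lower in BRD1-L cells by the probe set criterion, beside 6.21% and 4.22% of all genes, with a median difference of 0.13. LAMB2, the beta chain of the glomerular and neuromuscular laminins, read 6.39 on the untreated array, 5.92, 6.01 and 7.01 on the mock arrays, 6.69, 6.60 and 6.90 on the siRNA arrays, 6.67 on the BRD1-S array and 7.21 on the BRD1-L array. BRD1-L was highest, but mock Dharmacon 2 lay close below it, and against that array the difference fell from 0.82 to 0.20. In the limma fit LAMB2 differed by 0.88 (SE 0.36, adjusted p = 0.340) and was not called. Without both Dharmacon 2 arrays the difference was 1.10.

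LAMA1, the alpha chain of the laminin of the early embryo, read 7.33 on the untreated array, 7.41, 7.55 and 7.56 on the mock arrays, 8.09, 8.19 and 7.56 on the siRNA arrays, 6.92 on the BRD1-S array and 6.71 on the BRD1-L array. Both tagged lines were below, and the Qiagen and Dharmacon 1 siRNA arrays above, all other arrays. BRD1-L differed from the untreated array by -0.61 and BRD1-S by -0.40. The limma difference for BRD1-L was -0.75 (SE 0.22, adjusted p = 0.173), so LAMA1 was not called.

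LAMB1 differed from the untreated array, the lowest of the 9 for this gene, by 0.03 in BRD1-L and 0.04 in BRD1-S cells, and from the mean of the mock arrays by -0.44 and -0.42. LAMC1, the gamma chain that most laminins share, spanned only 0.24 over the 9 arrays, from 8.14 to 8.38. LAMA4, an alpha chain of vessel basement membranes, was higher by 0.51 in BRD1-L cells than on the untreated array. It read 5.53 there, below all 3 mock arrays (5.60, 5.59 and 5.88), so the sign turned to -0.16 against their mean. LAMA5 differed by -0.02, and LAMA2 and LAMB3 were not above the olfactory level on any array.

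The 4 type IV collagen chains differed little, by -0.29 to 0.08 in BRD1-L cells and -0.25 to -0.03 in BRD1-S cells. COL4A1 read 6.36 on the untreated array, 6.44, 6.48 and 6.44 on the mock arrays, 6.46, 6.65 and 6.42 on the siRNA arrays, 6.12 on the BRD1-S array and 6.23 on the BRD1-L array. COL4A2 read 8.12 on the untreated array, 8.16, 8.25 and 8.34 on the mock arrays, 8.37, 8.10 and 8.26 on the siRNA arrays, 7.94 on the BRD1-S array and 8.20 on the BRD1-L array. BRD1-S was the lowest array for both chains of this head-to-head pair, and over the 9 arrays they had r = 0.43, with spans of 0.53 and 0.42.

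COL4A5 read 6.14 on the untreated array, 5.90, 5.86 and 6.19 on the mock arrays, 6.10, 6.01 and 6.16 on the siRNA arrays, 6.11 on the BRD1-S array and 6.0 on the BRD1-L array. COL4A6 read 4.83 on the untreated array, 4.77, 4.70 and 4.76 on the mock arrays, 4.86, 5.04 and 4.84 on the siRNA arrays, 4.62 on the BRD1-S array and 4.54 on the BRD1-L array. COL4A6 was thus lowest in the tagged lines, with 1 of its 7 probe sets past 1.5-fold in BRD1-L cells, while COL4A5 stayed within the control arrays in both. The pair had r = 0.15.

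NID2 (nidogen 2), a bridge between laminin and type IV collagen, was the member lower by the most in BRD1-L cells. It read 7.08 on the untreated array, 7.31, 7.41 and 7.57 on the mock arrays, 7.55, 7.87 and 7.44 on the siRNA arrays, 6.95 on the BRD1-S array and 6.02 on the BRD1-L array. BRD1-L was below every other array, and its difference from the untreated array was -1.07, a 2.09-fold lower intensity, with probe sets at -1.08 and -1.06. In the limma fit it was -1.33 (SE 0.20, adjusted p = 0.0381). The adjusted p rose to 0.105 without mock Qiagen, 0.102 without mock Dharmacon 1, 0.0744 without BRD1 siRNA Qiagen and 0.0525 without BRD1 siRNA Dharmacon 1, at differences of -1.34 to -1.30. Its paralog NID1 read 8.54 on the untreated array, 8.53, 8.43 and 8.55 on the mock arrays, 8.76, 8.96 and 8.41 on the siRNA arrays, 8.32 on the BRD1-S array and 8.21 on the BRD1-L array. NID1 was lowest in BRD1-L cells too, by -0.32, but none of its 3 probe sets passed 1.5-fold.

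FN1 (fibronectin) was higher in both tagged lines, by 0.62 in BRD1-L and 0.54 in BRD1-S cells, with 5 and 4 of its 8 probe sets past 1.5-fold. It read 5.51 on the untreated array, 5.78, 5.70 and 6.18 on the mock arrays, 5.76, 5.83 and 5.95 on the siRNA arrays, 6.06 on the BRD1-S array and 6.14 on the BRD1-L array. The untreated array was the lowest of all 9 and mock Dharmacon 2 the highest, so the sign turned with that mock array as control, to -0.04 for BRD1-L and -0.12 for BRD1-S. SPARC, a collagen-binding matricellular protein, differed by -0.02 in BRD1-L cells. THBS1 (thrombospondin 1) was not above the olfactory level on any array, and HSPG2 (perlecan) differed by -0.12. That mean joins HSPG2 probe sets that went opposite ways. The brighter one read 6.02 on the BRD1-L array against 6.60 on the untreated array (-0.58). The other, below the olfactory level, read 3.52 against 3.19 (0.33).

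**Figure D3:**
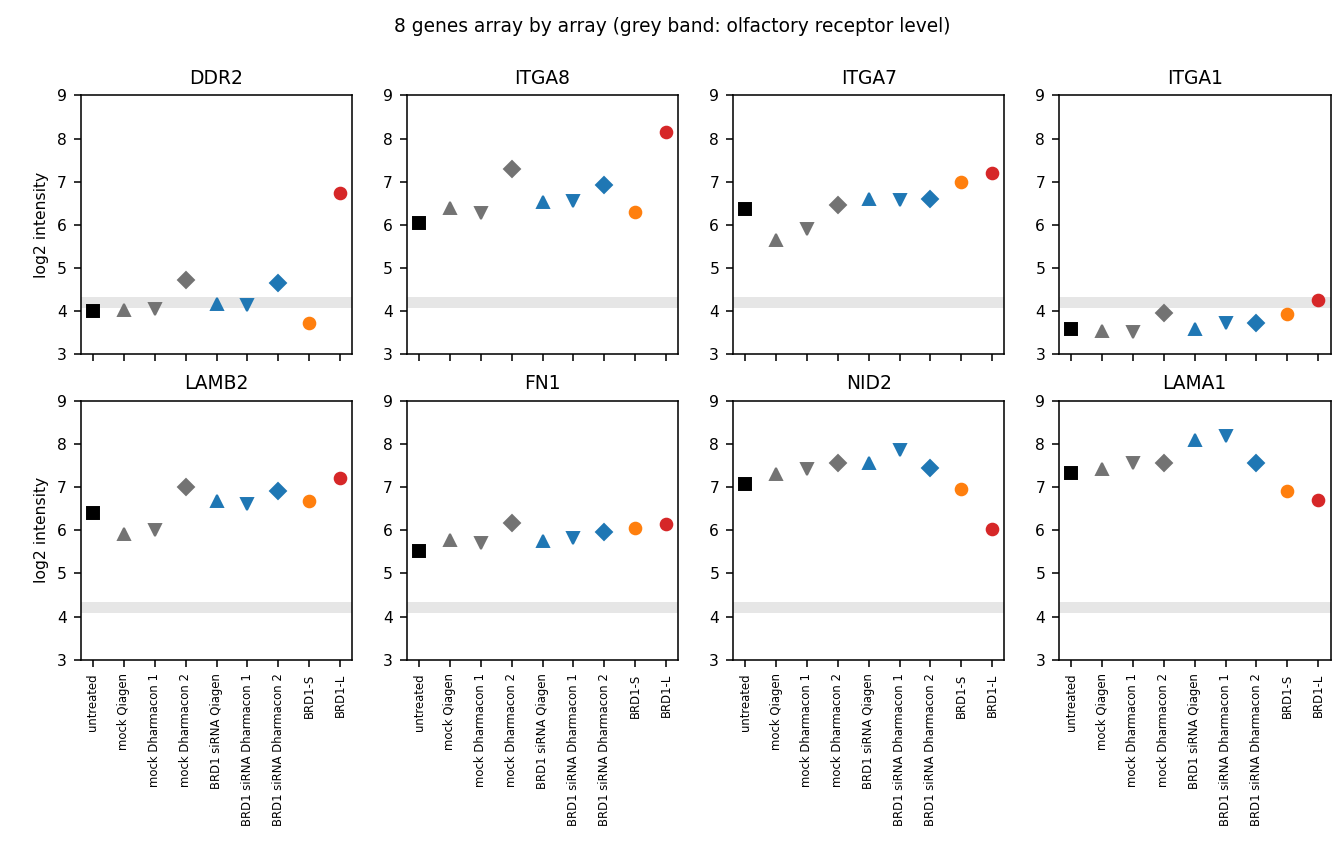
Log2 intensity (y axis) of 8 genes on each of the 9 arrays (x axis), 1 marker an array, with the olfactory receptor level as a grey band. BRD1-L at the far right is the highest array for the first 5 genes and the lowest for NID2 and LAMA1, while for LAMB2 and FN1 mock Dharmacon 2 (7.01 and 6.18) is close to or above it.

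BRD1-S cells differed less from the untreated array. By the probe set criterion 4 of 38 genes were higher (ITGA7, DDR1, LAMA4 and FN1), 10.5% beside 2.08% of all genes, and 2 were lower (DDR2 and SPARC), 5.26% beside 0.647%. By the mean of the probe sets ITGA7 was higher and 0 genes lower, beside 0.97% and 0.164% of all genes. The balance turned with the control. It was 4 higher and 7 lower with mock Dharmacon 1 (beside 7.64% and 5.64% of all genes), 0 and 10 with mock Dharmacon 2 (beside 1.17% and 1.97%), and 1 and 4 with the mean of the mock arrays (beside 3.79% and 2.07%). SPARC read 4.58 on the untreated array, 4.46, 4.37 and 5.02 on the mock arrays, 4.91, 4.86 and 4.89 on the siRNA arrays, 4.08 on the BRD1-S array and 4.56 on the BRD1-L array. BRD1-S was the lowest array and the only one at which SPARC was not above the olfactory level, with 5 of 9 probe sets past 1.5-fold and a mean difference of -0.50. In the limma fit 0 of 38 genes were called in either direction, beside 0.0219% of all genes higher and 0% lower. None of the 38 genes was more than 1.5-fold outside all 4 untreated and mock arrays, beside 0.143% of all genes above and 0.0658% below.

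Set directly against BRD1-S cells, BRD1-L cells had 5 of 38 genes higher in at least 1 probe set (ITGA6, ITGA8, DDR2, LAMA4 and SPARC), beside 3.43% of all genes. DDR2 and ITGA8 in this count were named for being high in BRD1-L cells. Lower was 1 of 38 (NID2), beside 3.4%, a share of the members below that of all genes. DDR2 differed by 3.02, ITGA8 by 1.88, ITGA6 by 0.66 and NID2 by -0.94 between the lines. ITGA7, which both lines had higher than untreated cells, differed by 0.21. With 1 array a line these differences have no replicate check.

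After BRD1 siRNA no member was called. In the limma fit of the 3 siRNA and 3 mock arrays with the kit as covariate, 0 of 38 genes passed an adjusted p of 0.05, beside 0% of all genes. At an unadjusted p under 0.05 ITGA6, ITGA7 and LAMA1 were higher (7.89%, beside 2.01% of all genes) and ITGA2 lower (2.63%, beside 2.89%). ITGA6 differed by 0.49 (SE 0.19), ITGA7 by 0.59 (SE 0.18), LAMA1 by 0.44 (SE 0.18) and ITGA2 by -0.31 (SE 0.12), each with an adjusted p of 0.869. The Dharmacon 2 pair stood apart from the other pairs: the median difference of the 38 genes was 0.12 in the Qiagen pair, 0.14 in the Dharmacon 1 pair and -0.09 in the Dharmacon 2 pair, beside 0.00, 0.01 and -0.03 over all genes. By the probe set criterion 9 genes were higher and 2 lower in the Qiagen pair (beside 6.89% and 6.73% of all genes) and 9 higher and 4 lower in the Dharmacon 1 pair (beside 6.79% and 3.44%). In the Dharmacon 2 pair 1 was higher (COL4A6) and 2 lower (DDR1 and FN1), beside 1.31% and 1.83%. ITGA6, ITGA7, LAMA1, LAMB1, LAMB2 and SPARC were higher in both the Qiagen and the Dharmacon 1 pair, and LAMA4 was lower in both. By the mean of the probe sets only ITGA6, ITGA7, LAMA1 and LAMB2 were past 1.5-fold in these pairs. The mean also takes in dim probe sets. The brighter LAMB1 probe set differed by 0.62 and 0.82, and the other, at 4.35 to 4.72 on these arrays, by 0.0 and -0.23. For SPARC, 1 probe set differed by 1.0 in both pairs, while others lay near or below the olfactory level.

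ITGA6 read 6.66 on the untreated array, 6.23, 6.24 and 6.80 on the mock arrays, 7.01, 7.07 and 6.67 on the siRNA arrays, 6.38 on the BRD1-S array and 7.04 on the BRD1-L array. The Qiagen and Dharmacon 1 siRNA arrays were above the untreated array, and their mock arrays were below it and below all others. The pair differences were 0.78, 0.83 and -0.13. ITGA2 read 6.81 on the untreated array, 6.87, 7.0 and 6.58 on the mock arrays, 6.59, 6.49 and 6.44 on the siRNA arrays, 6.33 on the BRD1-S array and 6.56 on the BRD1-L array. It was lower with siRNA in each pair, by -0.27, -0.51 and -0.14, although mock Dharmacon 2 overlapped the siRNA arrays. ITGA7 and LAMB2 showed the same low mock arrays as ITGA6, with pair differences of 0.96, 0.67 and 0.14 for ITGA7 and 0.77, 0.59 and -0.11 for LAMB2. LAMA1 differed, since its Qiagen and Dharmacon 1 siRNA arrays were high while its mock arrays were near the untreated one, with pair differences of 0.68, 0.64 and 0.00.

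With the Dharmacon 2 pair left out, an alternative chosen after seeing the data, 8 of 38 genes were called higher (21.1%, beside 7.88% of all genes) and 1 lower (2.63%, beside 5.75%). The higher genes were ITGA6 (0.80, SE 0.08, adjusted p = 0.000847), ITGA7, LAMA1, LAMB1, LAMB2, NID1, NID2 and SPARC, and the lower gene was ITGA2 (-0.39, SE 0.09, adjusted p = 0.0227). This fit compares 2 siRNA with 2 mock arrays with the kit as covariate, so little is left to measure replicate spread. The SE of each member was 0.08 to 0.10, an error taken mostly from all genes and not from each gene. Its 2 mock arrays were also the most alike of all pairs of arrays (r = 0.9978). The p-values of this fit thus say little about spread between cultures. BRD1 was lowered in the omitted pair as well, from 7.75 to 6.75. A kit by siRNA interaction was also fitted on all 6 arrays. It sets the Qiagen pair against both Dharmacon pairs together. It therefore cannot show whether the Dharmacon 2 pair differs from the others, and nothing is read from it here. DDR2 and ITGA8, the genes highest in BRD1-L cells, were not called in either fit, at differences of 0.04 (SE 0.21) and 0.02 (SE 0.26) over all 6 arrays.

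**Figure D4:**
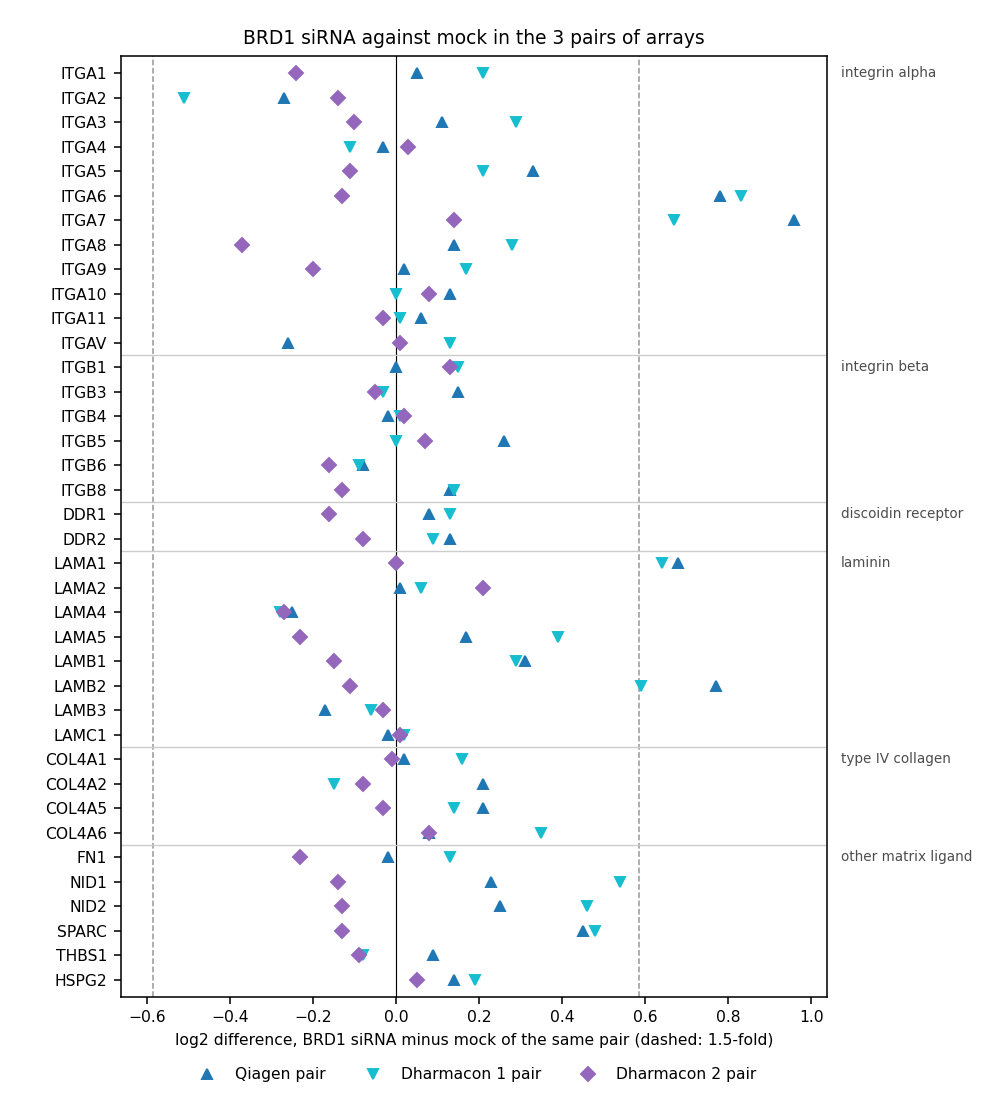
Log2 difference of BRD1 siRNA minus mock (x axis) in the Qiagen, Dharmacon 1 and Dharmacon 2 pairs for each gene, 1 pair a marker, with dashed lines at 1.5-fold. ITGA6, ITGA7, LAMA1 and LAMB2 are near or past the right line in the first 2 pairs and at -0.13, 0.14, 0.00 and -0.11 in the Dharmacon 2 pair.

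Other genes of the same system were described by fixed lists. Of 26 measured adaptors that couple integrins to actin and to kinases, 5 were higher and 0 lower in BRD1-L cells by the probe set criterion, beside 6.21% and 4.22% of all genes, with a median of 0.03. By the mean, SRC, the founding SRC family kinase, was higher by 0.86, TGFB1I1, a paxillin relative, by 0.82 and PARVA, a binding partner of integrin-linked kinase, by 0.60, and none was called in the limma fit (adjusted p of 0.373, 0.247 and 0.0824). Of 18 other basement membrane genes 2 were higher and 1 lower, with a median of 0.04, beside the same shares of all genes. NPNT (nephronectin), the kidney ligand of the ITGA8 receptor, read 4.35 on the untreated array, 4.58, 4.45 and 4.60 on the mock arrays, 4.78, 4.77 and 4.45 on the siRNA arrays, 4.50 on the BRD1-S array and 5.07 on the BRD1-L array. It was highest in BRD1-L cells, as was ITGA8, by 0.72, with a limma difference of 0.57 (SE 0.15, adjusted p = 0.141). COL4A4, a glomerular type IV collagen chain, was above the olfactory level only there, at 4.24 against 3.39 on the untreated array (limma difference 0.80, SE 0.13, adjusted p = 0.0434).

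Among 12 fibrillar and type VI collagens, the ligands of DDR2 among them, 2 were higher and 0 lower in BRD1-L cells, beside 6.21% and 4.22% of all genes, with a median of 0.01. COL2A1 was higher by 0.72 in BRD1-L cells, but its mock arrays spread from 7.87 to 9.54. COL5A1 was higher by 0.67 in BRD1-S cells and differed by -0.04 in BRD1-L cells. Its mock arrays spread from 5.42 to 6.30, and the highest, mock Dharmacon 2, lay close to the 6.35 of the BRD1-S array. Of 18 collagen processing genes 2 were higher, LOXL1 and SERPINH1, and 0 lower, beside the same shares of all genes. LOXL1, a lysyl oxidase that crosslinks collagen and elastin, read 5.89 on the untreated array, 5.97, 6.19 and 6.28 on the mock arrays, 6.21, 6.19 and 6.13 on the siRNA arrays, 6.14 on the BRD1-S array and 7.28 on the BRD1-L array. Only BRD1-L stood apart, by 1.39, with a limma difference of 1.19 (SE 0.15, adjusted p = 0.0221). SERPINH1, the collagen chaperone of the endoplasmic reticulum, was higher by 0.79, with mock arrays from 8.42 to 9.73.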

How the data were processed

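The values used were log2 intensities deposited by the authors, 1 per probe set and array, which the study's methods describe as normalized to the mean of each array. How probes were summarised and the background removed is not given in the sources used here. Array means lay between 6.25 and 6.30 and medians between 5.41 and 5.53, and the number of arrays limits the precision. Probe sets were named from the platform annotation: 45259 had 1 gene symbol entry (18239 genes), 1327 several and 2800 none, and only the first were used.

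The genes and lists were chosen with earlier results of these data known. BRD1-L and BRD1-S were set against the untreated array at 1.5-fold without a test. Fits used limma 3.58.1 in R 4.3.3 with Benjamini-Hochberg adjustment at 0.05: siRNA against mock with the kit as covariate, and all 9 arrays in 4 arms. Both were also run on simulated data. The simulated arrays varied independently, unlike the arrays of a pair here, so that run does not show how the fits behave on these data. The study describes the siRNA knockdowns as separate experiments, the labels do not say whether cultures were separate, and the untreated and tagged cells had 1 array each, so the p-values measure the spread between these samples, which may be partly technical. Arrays of a pair deviated together (correlations of 0.333, 0.224 and 0.333 over genes). BRD1 siRNA Dharmacon 1 correlated nearly as much with mock Qiagen (0.215), which is not its pair. The remaining correlations across pairs ran from -0.391 to -0.01. A paired fit was an alternative, as were scaling, filters, thresholds, other controls and omitted arrays. Members given on every array were those past 1.5-fold in every probe set and those with an unadjusted siRNA p under 0.05. ITGAV, the beta chains ITGB1 and ITGB5 and the head-to-head type IV collagen pairs were given as well, as partner chains. Further members (NID1, FN1, SPARC), NPNT, LOXL1 and TIMP1 were added after their values were seen. Genes of other lists were named if their mean was past 1.5-fold. Promoter sequences came from RefSeq (GRCh38.p14).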

Additional observations from a re-analysis of the deposited data

How the results depend on the processing

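For BRD1-L against untreated, 13 members passed 1.5-fold in either direction, 14 after centring or quantile normalization of the arrays, and 12 to 15 with a mock array or the mean of the mock arrays as control. The count was 4 at 2-fold, 8 by the mean of the probe sets, 7 when every probe set had to pass and 5 beyond all 4 untreated and mock arrays. With mock Dharmacon 2 as control 5 were higher and 7 lower, in place of 10 and 3. For BRD1-S the 6 members became 1 under each of the first 3 of these rules and 0 under the last, and 11 and 10 with mock Dharmacon 1 and mock Dharmacon 2 as control. The split of 4 higher and 2 lower turned to 4 and 7, 0 and 10 with these, and to 1 and 4 with the mean of the mock arrays. The sign of FN1 turned with mock Dharmacon 2 as control, to -0.04 for BRD1-L and -0.12 for BRD1-S.

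Of all genes, the BRD1-L fit called 144, and 47 with a filter on dim genes, 84 with the mock arrays alone as control, 492 without the Dharmacon 2 pair and 15 to 225 with 1 array left out (15 without mock Qiagen, 225 without mock Dharmacon 2). The BRD1-S fit called 4, and 8 after centring, 2 with the filter, 8 with an intensity trend, 7 with the mock arrays alone and 1 to 7 with 1 array left out. The DDR2 difference was 2.46 to 2.70 in 12 alternatives, and the filter on dim genes removed it. NID2 was called in 9 of 13 (-1.41 to -1.25). The siRNA fit called 0 genes, 0 with the replicate block that pairs each siRNA array with its mock, 2487 without the Dharmacon 2 pair and 0 to 33 with 1 array left out (33 without mock Dharmacon 2). The causes were not tested. Signal near background limits DDR2 outside BRD1-L cells, ITGA1 and COL4A4. The BRD1-L calls of COL4A4, LOXL1 and TIMP1 were not followed through the alternatives above, so whether they hold with an array left out is not shown.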

Other observations

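Of 23 measured matrix proteases and inhibitors, 4 were higher and 1 lower in BRD1-L cells by the probe set criterion, beside 6.21% and 4.22% of all genes, with a median of 0.01. TIMP1, an inhibitor of matrix metalloproteinases, read 7.73 on the untreated array, 7.51, 7.52 and 8.06 on the mock arrays, 7.66, 7.73 and 7.89 on the siRNA arrays, 8.60 on the BRD1-S array and 8.88 on the BRD1-L array. Both tagged lines were above all other arrays, and the limma difference for BRD1-L was 1.18 (SE 0.20, adjusted p = 0.0496). TIMP2, its paralog, was higher by 0.79 and PLAT, the tissue plasminogen activator, by 1.01 in BRD1-L cells, and neither was called (adjusted p of 0.326 and 0.138). ADAMTS1, a protease that cleaves proteoglycans, differed by -0.95 in BRD1-L cells and by 0.50 in BRD1-S cells, with mock arrays from 9.01 to 9.59 and an adjusted p of 0.0866 for BRD1-L.

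Of 11 other matrix receptors 4 were higher and 1 lower in BRD1-L cells, beside the same shares of all genes, with a median of 0.07. The heparan sulfate syndecans SDC1 and SDC4 were higher by 0.67 and 0.62, and SDC2 differed by -0.80. CD9, a tetraspanin that associates with integrins, was higher by 0.65. None of these was called in the limma fit (adjusted p of 0.134, 0.361, 0.0848 and 0.0824). None of 8 integrin genes of leukocytes and platelets passed 1.5-fold in BRD1-L or BRD1-S cells.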
